A study of Mus musculus with 6 samples.

Results

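The 22 densest 50 kb stretches of open chromatin in mouse urothelial cells were examined. They held 179 of 51836 open regions and were chosen from ATAC-seq peak lists, in which a transposase marks accessible DNA. In each of 6 lists, intervals with equal ends were collapsed and the 50000 with the highest fold over background were retained. Overlap of 1 bp was enough to merge them. A merged region was kept if it held such an interval in at least 3 lists, and chromosomes 1 to 19 and X were cut into fixed 50 kb bins. The members are the regions whose midpoint lies in a bin with 8 or more kept regions. The fold values of both genotypes together thus chose the members, and density, fold and number of lists are given below as descriptions only.

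The study compared Stag2 KO mice (3 samples) with Stag2 WT mice (3 samples). All mice of both groups ate a diet with TMX for 1 week and were killed 1 week after its start. From the peeled urothelium, viable cells that were GFP+ and DAPI- were sorted, 50000 per condition, and all libraries carry the same batch label. The sources used here give no Cre driver, floxed allele, source of GFP, age or sex of the mice. The labels call the samples biological replicates.

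STAG2 belongs to cohesin, a ring-shaped complex that extrudes and holds loops of chromatin, and STAG1 is its paralog. Open regions are mostly promoters and distal elements such as enhancers, and neighbouring enhancers can lie in dense groups around genes with high activity in a cell type. The urothelium is the stratified lining of the bladder, with uroplakin-bearing luminal cells above keratin 5 positive basal cells.

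The 16 member regions that overlap a promoter window (250 bases before to 50 bases after a gene's start) cover 18 such windows. The sequences of 6 of them are printed because the results return to these genes. Plekhd1, Phlda3 and Mcrip1 had the smallest p among the promoters, Amd1 and Dynll1 were among the promoters with the best mean rank, and Mdm2 lies in one of the bins with 9 regions. The 250 bases before the start are given 5′ to 3′ on the strand of the gene, from RefSeq on GRCm38.p6, whose coordinates are those of mm10. Capitals mark matches on either strand to the GC box (GGGCGG), the CCAAT box (CCAAT), an ETS motif (CCGGAAG), AP-1 (TGANTCA), TEAD (GGAATG) and the E-box (CACGTG). The windows are chr12:80692351-80692600 (plus strand), chr1:135765835-135766084 (plus), chr11:120549723-120549972 (minus), chr10:40302189-40302438 (minus), chr5:115300991-115301240 (minus) and chr10:117710759-117711008 (minus).
Plekhd1: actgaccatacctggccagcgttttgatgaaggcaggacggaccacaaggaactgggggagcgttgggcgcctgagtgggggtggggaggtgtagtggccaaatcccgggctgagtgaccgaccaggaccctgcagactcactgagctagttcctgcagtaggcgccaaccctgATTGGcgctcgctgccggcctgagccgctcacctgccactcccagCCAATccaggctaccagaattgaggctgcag
Phlda3: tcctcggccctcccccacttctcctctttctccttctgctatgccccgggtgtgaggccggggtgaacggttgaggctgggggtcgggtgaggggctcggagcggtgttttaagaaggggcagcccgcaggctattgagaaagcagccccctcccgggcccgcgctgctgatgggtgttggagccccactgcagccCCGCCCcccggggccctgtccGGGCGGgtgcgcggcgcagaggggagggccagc
Mcrip1: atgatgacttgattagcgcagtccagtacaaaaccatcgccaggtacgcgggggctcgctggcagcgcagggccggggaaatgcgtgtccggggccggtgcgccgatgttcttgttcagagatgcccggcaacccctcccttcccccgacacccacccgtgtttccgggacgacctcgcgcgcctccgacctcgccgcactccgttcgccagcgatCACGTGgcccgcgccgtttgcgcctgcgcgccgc
Amd1: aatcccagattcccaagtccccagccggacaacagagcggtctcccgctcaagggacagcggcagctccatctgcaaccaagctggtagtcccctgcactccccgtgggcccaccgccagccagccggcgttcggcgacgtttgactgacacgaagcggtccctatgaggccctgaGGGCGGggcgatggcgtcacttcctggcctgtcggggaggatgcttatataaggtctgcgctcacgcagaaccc
Dynll1: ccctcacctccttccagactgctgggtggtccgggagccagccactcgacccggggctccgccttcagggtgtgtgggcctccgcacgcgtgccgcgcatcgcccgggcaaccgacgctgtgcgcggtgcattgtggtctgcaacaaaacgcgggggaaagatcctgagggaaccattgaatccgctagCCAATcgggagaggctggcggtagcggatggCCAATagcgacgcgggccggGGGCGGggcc
Mdm2: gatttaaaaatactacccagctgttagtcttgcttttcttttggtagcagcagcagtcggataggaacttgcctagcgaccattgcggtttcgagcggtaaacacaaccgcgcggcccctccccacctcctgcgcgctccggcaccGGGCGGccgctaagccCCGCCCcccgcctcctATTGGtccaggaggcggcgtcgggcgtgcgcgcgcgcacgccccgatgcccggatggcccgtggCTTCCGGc

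The GC box was in 66.7% of the 18 windows, against 43.1% of 21045 promoter windows of the same length. The E-box was in 16.7% of the 18 windows, against 6.70% of all. Its 3 windows lie at 2 genes, Slc35e3 and Mcrip1, since both windows of Mcrip1 overlap and share the match. The CCAAT box was in 27.8% against 35.6%. The CTCF core letters (AGNNGGC) were in 66.7% against 56.4%. AP-1, TEAD and ETS letters were in 5.56%, 11.1% and 11.1% of the windows, against 6.17%, 11.6% and 9.08% of all. The GATA letters (AGATAA) were in none of the 18 windows and in 8.84% of all windows. The GRHL letters (ACCGGTT) were also in none of the 18, and in 0.979% of all. The median GC content was 65.2% (47.6% to 71.2%), against 55.6% over all windows. All 18 windows overlap a kept open region, whereas the windows over all promoters were taken whether open or not. These shares thus cannot separate dense bins from open promoters in general. The windows of Triap1 and Gatc also overlap. These are matches to letters and say nothing on binding.

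Kept regions fell into 23292 bins. Of these, 9127 held 1 region, 6106 held 2, 101 held 7, 19 held 8 and 3 held 9. The dense bins lay on 15 chromosomes, and none of them were neighbours. The bins on either side of them held 1 to 7 kept regions (median 3), against a median of 2 over all bins.

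**Figure D1:**
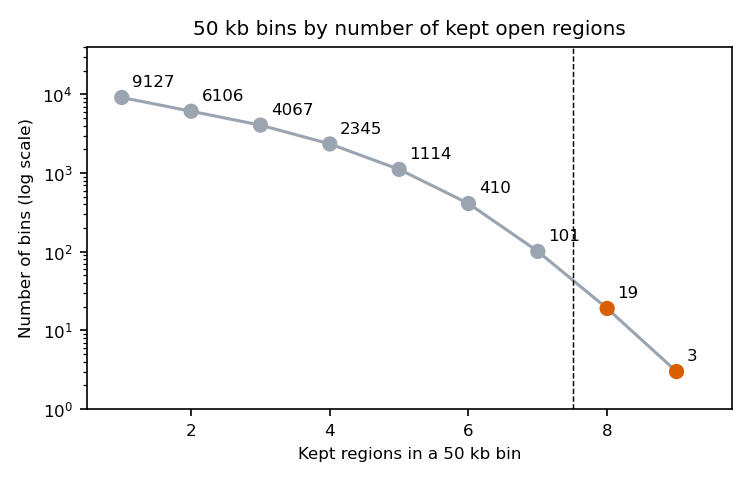
Number of 50 kb bins (vertical axis, log scale) by the number of kept open regions they hold (horizontal axis). The dashed line marks the threshold, and the 2 orange points are the 19 bins with 8 and the 3 bins with 9 regions.

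The dense bins overlapped 36 of 21631 protein-coding genes (0.166%), and 31 of these had an end inside the bin. A dense bin held 1.64 protein-coding genes on average, against 1.24 over all bins. 5 of 22 dense bins (22.7%) held no protein-coding gene, against 22.4% of all bins, and 12 (54.5%) overlapped a long non-coding RNA gene, against 37.0% of all.

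Of the 3 bins with 9 regions, chr3:41500001-41550000 holds no protein-coding gene. It overlaps the non-coding 2400006E01Rik and ends 5734 bp from Jade1, a subunit of the HBO1 histone acetyltransferase complex. The bin chr11:120500001-120550000 holds 4 protein-coding genes. They are Slc25a10, the mitochondrial dicarboxylate carrier, Gcgr, the glucagon receptor, Mcrip1, which interacts with the corepressor CtBP, and Ppp1r27, a regulatory subunit of protein phosphatase 1. The bin chr10:117700001-117750000 holds Mdm2, the ubiquitin ligase of p53, and Slc35e3, a member of the nucleotide sugar transporter family. It had a promoter member at both genes.

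Among the 19 bins with 8 regions, chr2:32450001-32500000 had the best mean rank. It holds Slc25a25, a mitochondrial carrier of ATP-Mg and phosphate, and Naif1, a nuclear inducer of apoptosis. The next, chr10:40300001-40350000, holds Amd1, the S-adenosylmethionine decarboxylase of polyamine synthesis, and Cdk19, a kinase of the Mediator complex. The bin chr1:135750001-135800000 holds Phlda3, a p53 target that restrains Akt, Csrp1, a LIM domain protein, and Tnni1, slow skeletal troponin I. The bin chr19:9050001-9100000 holds Ahnak, a very large scaffold protein, and Scgb1a1, the secretoglobin of airway club cells. Rbm47, an RNA-binding protein of epithelia, was the only protein-coding gene of chr5:66050001-66100000, and all 8 regions lay in its body. The bin chr6:82850001-82900000 holds no protein-coding gene and lies 11884 bp from Sema4f, a semaphorin. Tekt5, a tektin of the sperm flagellum, was the only protein-coding gene of chr16:10350001-10400000, with 6 of 8 regions in its body and 1 at its promoter.

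The other 12 bins were spread over 8 chromosomes. Genes of these bins include Nedd4l, a ubiquitin ligase that acts on the epithelial sodium channel, Tspan14, a tetraspanin partner of ADAM10, Atp2a2, the calcium pump SERCA2, and Fgf1, a fibroblast growth factor. They also include Dynll1, a dynein light chain, Denn2b, an exchange factor for Rab GTPases, Inpp5a, an inositol polyphosphate phosphatase, and Plekhd1 with the zinc transporter Slc39a9. The bin chr5:115300001-115350000 was the richest in genes, with Dynll1, Srsf9, Gatc, Triap1 and Cox6a1. Its 4 promoter members were the most in any dense bin.

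**Figure D2:**
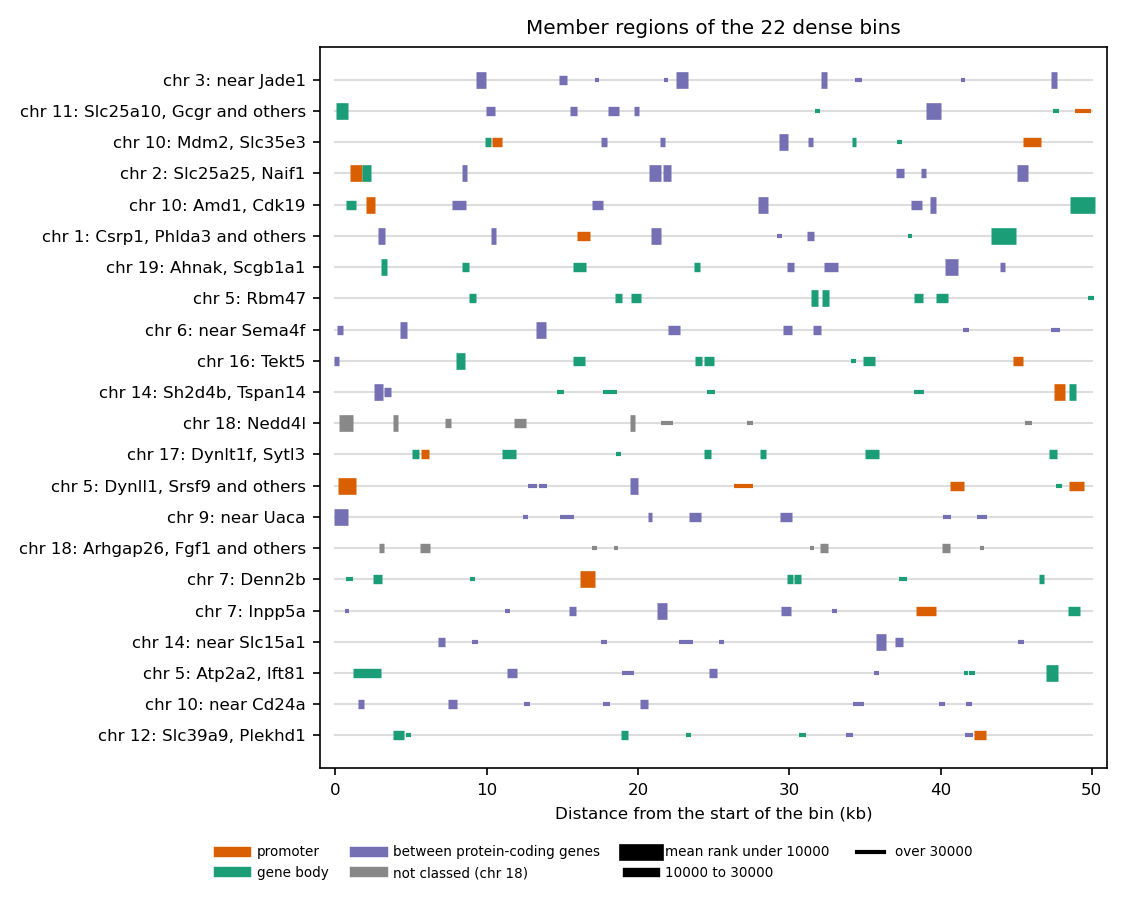
Position of the 179 member regions in the 22 dense bins (horizontal axis, distance from the start of the bin in kb), ordered by number of regions and mean rank. Colour gives the position relative to protein-coding genes, thickness gives the geometric mean rank over the 6 libraries, and the 2 bins on chromosome 18 are not classed. Regions are spread over the bins, and the spans from the first to the last region reach from 36702 to 49908 bp.

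Of 273 genes in 15 lists of urothelial, signalling, cell cycle, chromatin and other cell type genes, 1 lay in a dense bin. It was Mdm2, from the list of CDK inhibitors and quiescence genes. The nearest to the threshold was Ier5, an immediate early gene, with 7 regions in its densest bin. The luminal list had a median of 3 kept regions in the densest bin of each gene and a maximum of 6, at Ehf and Psca. The basal list had a median of 4 and a maximum of 6, at Dst and Sox15, and the junction list a median of 4, with 6 at Cldn3 and Pkp1. The interferon and NF-kB list had a median of 4, with 6 at H2-K1 and Nfkb2. The housekeeping list also had a median of 4, with a maximum of 5. The smooth muscle list had a median of 3, as the luminal list did, and a maximum of 4. The fibroblast list had a median of 1 and a maximum of 4. The immune and endothelium lists had a median of 1.5 each, with 6 at Cd68 and at Eng. Over all protein-coding genes the median was 2, and 4112 of 21631 had no kept region in any bin they touch. A longer gene touches more bins, so its densest bin can hold more regions, and gene length was not adjusted for. Stag1 (chr9:100597709-100958544) reached 4 kept regions in a bin and Stag2 (chrX:42149297-42277186) reached 2, and neither lies in a dense bin. Peak lists do not show whether Stag2 was deleted.

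The cell label was checked at marker promoters. All 10 luminal markers whose promoter windows could be matched, among them Upk1a, Upk3a and Krt20, had a peak there in every library. Of 5 basal markers, 4 had a peak in every library, and the promoter of Krt14 had none in any. Markers of other cell types were also listed, with 2 of 3 fibroblast, 2 to 3 of 3 smooth muscle, 1 to 2 of 2 endothelial and 1 to 3 of 4 immune promoters per library. The promoters of Pdgfra and Ptprc had no peak in any list. The part of these other cell types in the results below was not tested.

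The libraries held 181987 to 299636 peaks. KO replicate 1 had the most, and its list began at a −log10 p of 3, the others at 2. Lists differ in depth, so genotypes were compared by the rank of a region among the best 100000 intervals of each library by p, where rank 1 is the best and a region with no such interval was placed just after the last. Over the 179 members, KO replicates 1 and 2 deviated together from the mean of the 6 libraries (r = 0.76 across regions, a description). KO replicate 3 deviated against them (r = -0.57 and -0.58) and with WT replicate 3 (r = 0.47). WT replicate 2 showed little relation to KO replicates 1 and 2 (r = -0.04 and -0.05). Results are therefore also given without KO replicate 3 and, where they move, without WT replicate 2.

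Member regions were somewhat narrower than other kept regions, with a median of 493 bp (269 to 1884 bp), against 561 bp over all kept regions. Together the members covered a median of 9.20% of a dense bin (6.51% to 12.7%), against 2.38% over all bins. The median distance between neighbouring members was 5413 bp, against 9531 bp between kept regions of the same bin in all bins. Of 157 such gaps in dense bins, 23 (14.6%) were under 1000 bp, against 5.47% over all bins, and 9 were under 150 bp. Some dense bins thus pass the threshold because neighbouring intervals were not joined, and 15 bins remained dense when regions less than 150 bp apart were joined.

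By fold, the members were not stronger than other kept regions. Their median fold over background was 12.9, against 14.4 over all kept regions. Their median geometric mean rank was 22144, against 27791. An interval retained by fold in all 6 lists was found for 111 members (62.0%), against 62.5% of all kept regions. Members without one in some list can still have a weaker peak there.

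Most members lay away from matched promoter windows. Of 163 members that could be classed, 16 (9.82%) overlapped a promoter window, against 16.5% of all kept regions. A further 59 (36.2%) lay in a protein-coding gene body, against 46.0%, and 88 (54.0%) lay between protein-coding genes, against 37.5%. Promoter windows were matched for 28 of the 36 genes of the dense bins, so some starts are missed. A further 2 members, classed as gene body, cover an end of Cdk19 or of Atp2a2, which had no matched window (1.23% of classed members, against 2.78% of all classed regions). The median distance to the nearest matched start was 20433 bp, against 26492 bp. The 16 members on chromosome 18 were not classed.

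Bins with 8 regions, just inside the threshold, and bins with 7, just outside it, can be set side by side. The median fold was 13.3 with 8 regions and 12.9 with 7. The median width was 502.5 bp with 8 regions and 535 bp with 7. The share of promoters was 9.56% with 8 and 13.9% with 7, and that between genes 51.5% with 8 and 36.4% with 7. No protein-coding gene was found in 4 of 19 bins with 8 (21.1%) and 9 of 101 bins with 7 (8.91%), against 22.4% of all bins.

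Each dense bin held regions of very different strength. The strongest region lay between genes in 12 bins, in a gene body in 5 (1 of them at an end of Cdk19) and at a promoter in 3, which were those of Denn2b, Plekhd1 and Dynll1. At least 1 promoter member was found in 12 bins and none in 8, with the 2 bins of chromosome 18 not classed.

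The 4 strongest members by mean rank, picked by their values, overlapped no matched promoter window. The region chr6:82863254-82863936, 76174 bp from the start of Sema4f, had ranks 1102, 1076 and 636 in the KO libraries and 1075, 477 and 451 in the WT libraries. The region chr3:41509278-41509935, 46127 bp from the start of Jade1, had ranks 1361, 1806 and 405 in KO and 889, 729 and 342 in WT. The region chr2:32470746-32471557, 19682 bp from the start of Slc25a25, had ranks 492, 869 and 879 in KO and 2480, 863 and 863 in WT. KO and WT ranks overlapped for all 3 of these regions. The region chr10:40348570-40350183, which covers an end of Cdk19, had ranks 2620, 2601 and 1074 in KO and 917, 1173 and 617 in WT, and these overlapped too.

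The best 50000 intervals by fold chose the dense bins, so their numbers there are described without a test. KO libraries put 0.330% ± 0.00529 of these intervals in the dense bins, and WT libraries 0.310% ± 0.0131 (SD, n = 3 each). The values were 0.334%, 0.324% and 0.332% in KO and 0.322%, 0.296% and 0.312% in WT. Members with such an interval numbered 159, 156 and 165 in KO and 154, 147 and 155 in WT. Over all kept regions the share listed was 83.8%, 85.0% and 91.2% in KO and 85.5%, 90.1% and 89.4% in WT.

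Measures that the rule did not use were tested over the libraries by exact permutation (two-sided), where 3 against 3 cannot go below p = 0.1. In sorted bulk cells, a change in the makeup of the sample and a change within each cell cannot be told apart. The median rank of the members was 22264 ± 927 in KO and 22334 ± 1064 in WT (SD, n = 3 each, exact permutation p = 0.8, also 0.8 after Benjamini-Hochberg adjustment over 3 quantities). Their median interval width was 407 ± 12.4 bp in KO and 449 ± 23.1 bp in WT, without overlap (n = 3 each, exact permutation p = 0.1, adjusted 0.15). Intervals of all kept regions were narrower in KO too, with medians of 432, 445 and 456 bp in KO and 497, 478 and 494 bp in WT. Summits per member numbered 1.33 in KO and 1.39 in WT (n = 3 each, exact permutation p = 0.1, adjusted 0.15). Over all kept regions the means were lower in KO too, with 1.483, 1.476 and 1.489 in KO and 1.543, 1.528 and 1.560 in WT.

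Some single bins differed in how many of the best 50000 intervals of a library they held, and those below are a selection. Others did not, such as the Tekt5 bin with 8 in every library. The Nedd4l bin (chr18:65050001-65100000) had 6, 5 and 7 in KO and 7, 3 and 6 in WT. The Rbm47 bin had 8 in each KO library and 7 in each WT library. The Phlda3 bin had 9, 8 and 8 in KO and 7, 5 and 5 in WT. The Atp2a2 bin (chr5:122500001-122550000) had 8, 8 and 7 in KO and 6, 4 and 6 in WT. The Mdm2 bin had 8, 7 and 8 in KO and 9 in each WT library, so that the order of the groups was the reverse there. These numbers too are descriptions.

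No member was in the best 50000 intervals of all WT libraries and of none of the KO libraries, and 3 members (1.68%) showed the reverse. Over all kept regions 1.24% were listed in WT only and 1.42% in KO only in this way, so the members' share was near that of all regions. The 3 members, named after their values were seen, lie between genes in the Slc25a10 bin (chr11:120509961-120510533), in the body of Nedd4l (chr18:65071549-65072324) and near Sema4f (chr6:82891507-82891873). By p all 3 had peaks in every WT library, and the first of them had ranks 12159, 13369 and 15169 in KO and 21539, 15516 and 17035 in WT. The log2 rank gains of the 3 regions in KO over WT were 0.40, 0.43 and 0.53, and none passed the test described next.

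Ranks of single regions were then compared with limma on −log2 ranks over all 51836 kept regions. The log2 rank gain is the mean in KO minus that in WT, so that a gain of 1 is a rank better by a factor of 2 in KO. Over all regions, 42 were called higher (0.081%) and 37 lower (0.0714%) in KO, 0.152% in all, at an adjusted p of 0.05, and of the 179 members none was called in either direction (lowest limma adjusted p 0.205). At an unadjusted p below 0.05, 20 members were higher and 12 lower in KO, against 8.23% and 11.9% of all regions. The ranks of the 2 genotypes did not overlap for 25 members (14.0%) higher in KO and 12 (6.70%) lower, against 8.56% and 9.71% of all regions. The median gain was -0.02 over the members and -0.03 over all regions.

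Leaving out KO replicate 3 changed these counts. Without it, 18 members were called higher and 22 lower in KO by limma (22.3% of members, against 27.5% of all regions). The members were thus called at a share close to that of all regions, with 10.7% of all regions higher and 16.9% lower. The 18 higher members were 6 promoter regions, 5 gene body regions and 7 between protein-coding genes. The 22 lower members were 8 gene body regions, 10 between protein-coding genes and 4 unclassed, with none at a matched promoter window. KO replicate 3 was singled out by its ranks in these same members, so these calls are no independent support. Leaving out any other single library, WT replicate 2 included, gave no called member.

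The gains are described by position, without a test between positions. All 16 members at a matched promoter window had a positive gain, from 0.06 to 1.37 with a median of 0.49. Over all promoter regions 71.8% were positive and the median was 0.34. The median gain was -0.06 for the 59 members in gene bodies (27 positive), against -0.06 for all such regions. The members at the ends of Cdk19 and Atp2a2 had gains of -1.15 and 0.74. The median was -0.04 for the 88 members between genes (37 positive), against -0.14 for all such regions.

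The share of a library's best 50000 intervals near gene ends was higher in each KO library than in each WT library. It was 20.96%, 21.19% and 19.11% in KO and 19.01%, 18.31% and 18.23% in WT. KO replicate 3 was thus close to the WT values, and the difference between genotypes in this share was not tested. With this share as a covariate, the median gain of the promoter members was -0.03, and that of all promoter regions -0.17. The share comes from the same lists as the ranks and itself counts intervals near gene ends. This fit thus cannot show whether promoter gains are separate from it. Without KO replicate 3 the medians were 0.67 and 0.54, and with ranks by fold 0.42 and 0.24.

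**Figure D3:**
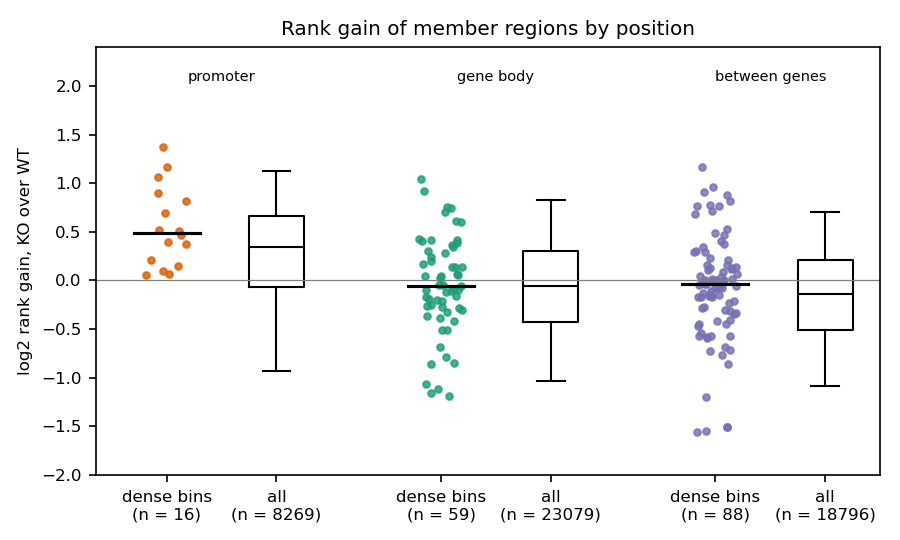
Log2 rank gain (vertical axis, KO over WT) of member regions (points, with the median as a line) and of all kept regions (boxes, quartiles with whiskers from the 5th to the 95th percentile) by position. All 16 promoter points are above 0, with a median of 0.49, while the other classes spread on both sides of 0.

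Among the 5 members with the smallest p and a positive gain, 2 are promoters shown above. The Plekhd1 promoter (chr12:80692219-80693033), of a gene for a protein with a pleckstrin homology domain, had ranks 10536, 6978 and 13008 in KO and 29005, 16563 and 34560 in WT. All KO ranks were better than all WT ranks, and the log2 rank gain was 1.37 ± 0.35 (SE, limma adjusted p 0.205). The Phlda3 promoter (chr1:135765972-135766811) had ranks 12453, 6705 and 18060 in KO and 25724, 22084 and 29835 in WT. The KO ranks were again all better, with a gain of 1.16 ± 0.36 (SE, limma adjusted p 0.213).

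The other 3 with a positive gain were distal. The region chr14:121409062-121409451, 95997 bp from the start of Slc15a1, the intestinal peptide transporter, had ranks 27368, 27027 and 27260 in KO and 43169 and 53366 in WT replicates 2 and 3. In WT replicate 1 it was outside the best 100000 intervals, and the gain was 1.17 ± 0.30. A region in the body of Tekt5 (chr16:10384064-10384444) had ranks 22597, 23716 and 29029 in KO and 45362, 37479 and 43712 in WT, a gain of 0.75 ± 0.23. A region 12746 bp from the start of Dynll1 (chr5:115313491-115313980) had ranks 24752, 25140 and 41113 in KO and 73055, 49263 and 44225 in WT, a gain of 0.88 ± 0.29. KO ranks were better than all WT ranks in each of these 3 regions, and none was called by limma.

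None of the 5 members with the smallest p and a negative gain overlaps a matched promoter window. The region in the body of Ahnak (chr19:9058361-9058830) had ranks 26559, 18908 and 13653 in KO and 8296, 10046 and 6979 in WT. All KO ranks were worse than all WT ranks, and the log2 rank gain was -1.19 ± 0.33 (SE, limma adjusted p 0.210). The region chr3:41547279-41547685, 8252 bp from the start of Jade1, had ranks 9750, 9537 and 3410 in KO and 3000, 2604 and 1780 in WT, a gain of -1.50 ± 0.47. The region chr7:139371237-139371895, 17543 bp from the start of Inpp5a, had ranks 22026, 17566 and 6362 in KO and 4072, 7256 and 3323 in WT. The KO rank of replicate 3 lay among the WT ranks there, and the gain was -1.55 ± 0.48.

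The other 2 lie in the body of Denn2b. The region chr7:109646503-109646841 had ranks 40269, 46936 and 22461 in KO and 14795, 21845 and 12880 in WT, a gain of -1.12 ± 0.33. The region chr7:109629873-109630260 had ranks 35753, 40368 and 19755 in KO and 11552, 23541 and 11514 in WT, a gain of -1.06 ± 0.37. KO replicate 3 was the best ranked KO library in all 5 of these regions. Without it, all 10 regions named here were called by limma, at adjusted p from 0.00421 to 0.0220, against 27.5% of all regions. The 10 were picked by their p in these same data, so these calls are no independent support.

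**Figure D4:**
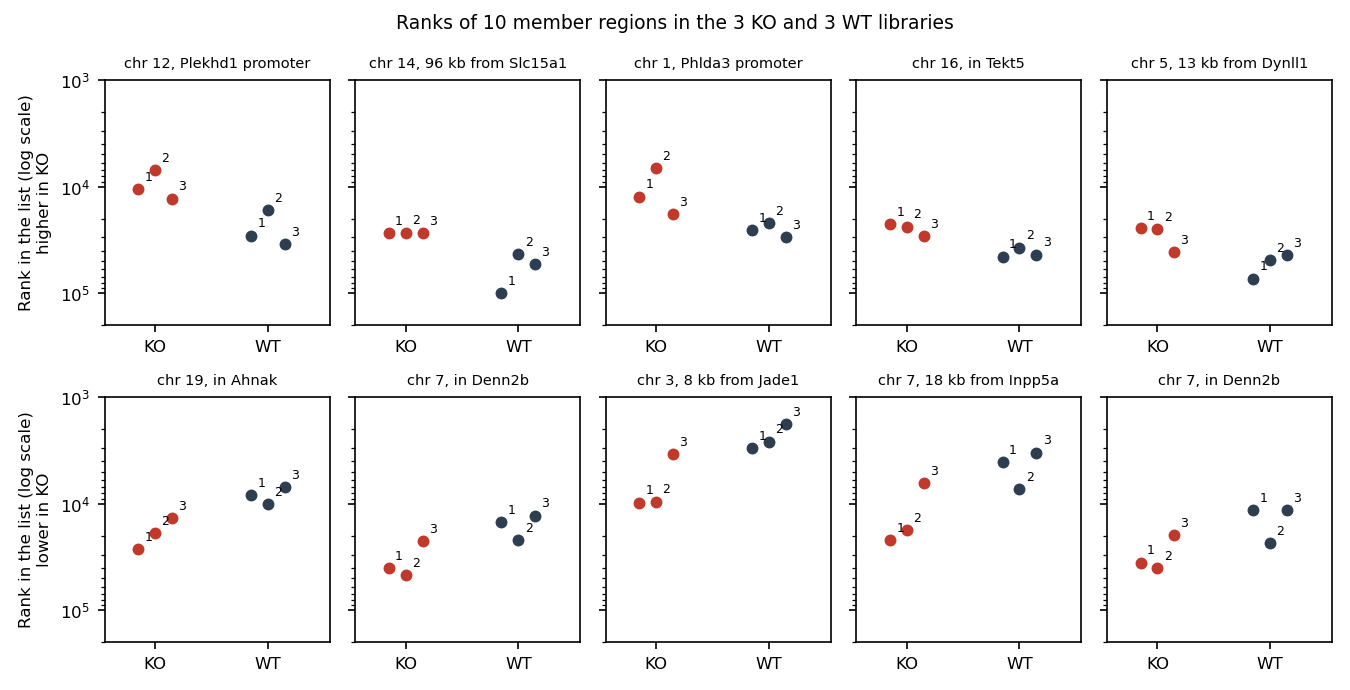
Rank (vertical axis, log scale, best at the top) of the 5 members with the smallest p and a positive gain (upper row) and the 5 with a negative gain (lower row) in each KO and WT library, numbered by replicate. KO replicate 3 is the closest KO library to the WT ranks in the 5 lower panels, and an absent interval is drawn just past 100000.

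Promoter members other than these 2 had smaller or less even gains. Mcrip1 had ranks 18382, 13145 and 39165 in KO and 48440, 32205 and 55226 in WT, a gain of 1.06 ± 0.38 (SE) with KO replicate 3 among the WT ranks. Denn2b, whose body held both of the regions above with negative gains, had promoter ranks of 5189, 5877 and 12292 in KO and 16520, 8991 and 16532 in WT, a gain of 0.90 ± 0.40. Slc35e3 had a gain of 0.81 ± 0.40 and Inpp5a of 0.69 ± 0.26.

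Amd1 and Dynll1 had the best mean ranks among the promoter members, and their gains were within about 1 SE of 0. Amd1 had ranks 2441, 2692 and 3343 in KO and 3854, 4044 and 3056 in WT, a gain of 0.37 ± 0.36. Dynll1 had ranks 2453, 2852 and 7327 in KO and 4392, 3490 and 4600 in WT, a gain of 0.15 ± 0.45. The Mdm2 promoter had ranks 9621, 8009 and 16437 in KO and 14200, 10169 and 13708 in WT, a gain of 0.21 ± 0.34. KO and WT ranks overlapped at all 3 of them.

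Whole bins were compared by the mean −log2 rank of their regions, with limma over the 8059 bins with 3 or more kept regions. None of the 22 dense bins was called at an adjusted p of 0.05, and none of all bins (0.0%). At an unadjusted p below 0.05, 1 dense bin was higher and 1 lower in KO, against 7.01% and 10.8% of all bins. All 22 dense bins held regions with positive and regions with negative gains.

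The highest gains among dense bins were 0.35 ± 0.16 (SE) at Tekt5, where 6 of 8 regions were positive, and 0.30 ± 0.17 at Phlda3. In the Mdm2 bin 8 of 9 regions were positive, with a gain of 0.24 ± 0.14. The lowest gain was -0.53 ± 0.24 at the bin near Jade1, which holds no protein-coding gene and where 8 of 9 regions were negative. The Amd1 and Cdk19 bin had a gain of -0.40 ± 0.22, and the Denn2b bin -0.32 ± 0.14 with 7 of 8 regions negative. The limma adjusted p of these 6 bins was 0.276 to 0.354.

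The geometric mean rank of the bin near Jade1 was 18471 in KO replicate 1, 19149 in KO replicate 2 and 10327 in KO replicate 3, against 11419, 11888 and 8887 in WT. In the Amd1 and Cdk19 bin it was 9876, 10515 and 6745 in KO and 6397, 8171 and 5805 in WT. In both bins KO replicate 3 lay among the WT values. Without that library both were called lower in KO by limma, at adjusted p of 0.00551 and 0.0352, where 9.07% of all bins were called higher and 16.0% lower, 25.1% in all. Both bins were picked by their p in these same data, so these calls are no independent support. The other named bins were not called without it (limma adjusted p 0.0584 to 0.170). In the Tekt5 bin the geometric mean rank was 14250, 13303 and 16150 in KO and 21199, 16988 and 17774 in WT, without overlap.

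**Figure D5:**
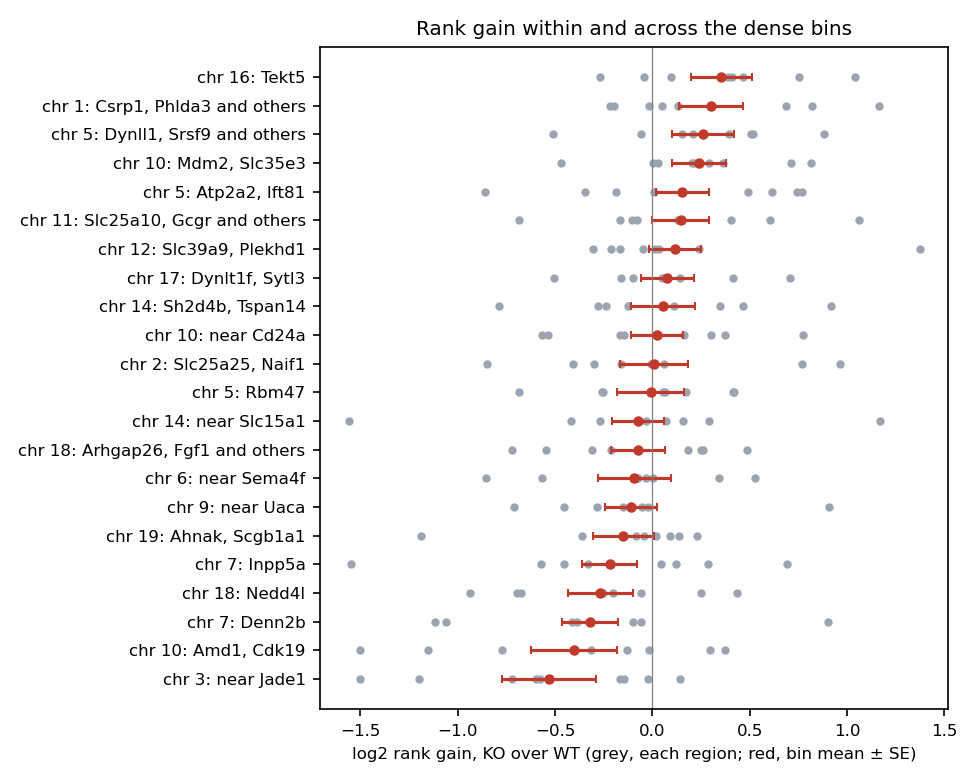
Log2 rank gain (horizontal axis, KO over WT) of each member region (grey) and of each dense bin (red, mean with SE from limma), ordered by the bin's gain. Bin gains run from -0.53 near Jade1 to 0.35 at Tekt5, and every bin has grey points on both sides of 0.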

How the data were processed

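The authors deposited 1 narrowPeak list per library. The submitters' processing notes name the build mm10 and the tool DiffBind. The sources used here give neither aligner nor peak caller. Per the values, the deposited fold over background is a ratio, and the deposited −log10 p and −log10 q come from the authors' peak caller. The deposited score is a display score and was not used, nor was the −log10 q. Fold and p depend on depth, which the lists do not state, so only ranks within a list were compared.

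Regions, bins and ranks were made with Python 3.11.15, NumPy 2.4.6, pandas 2.3.3 and SciPy 1.17.1, and merging was checked against bedtools 2.31.1. Region and bin ranks were tested in R 4.3.3 by limma 3.58.1 (moderated variances, trend, Benjamini-Hochberg at 0.05). The rank test was also run on simulated ranks. These had independent noise in each library, without the deviations that libraries shared here. Figures used matplotlib 3.10.9. The members, gene lists and tests were chosen with earlier results of these data known. Named were the 10 densest bins, the 3 bins and 5 member regions per direction with the smallest p, up to 4 genes per list, Stag1 and Stag2. Genes are RefSeq spans on GRCm38.p6, and promoter windows were matched for 17274 of 21631 protein-coding genes. Where nothing states separate mice, p-values measure the spread between these samples. Alternatives were other list lengths, rankings, thresholds, grids and covariates, a replicate block, and leaving out each library. A test of the share of best intervals in dense bins was planned, and that share is only described because the rule used the same intervals.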

Additional observations from a re-analysis of the deposited data

How the results depend on the processing

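The rule decides how many bins are dense. Against 22 bins with 179 members, a threshold of 7 gave 123 bins with 886 members and a threshold of 9 gave 3 with 27. Lists of 25000 intervals gave 0 bins with 0 members, so no share could be computed there, and lists of 100000 gave 2133 with 19295. Ranking by −log10 p gave 289 with 2534, of which 18 bins were among the 22. An interval in at least 2 lists gave 62 with 512, and in all 6 lists 3 with 24. A grid shifted by 25 kb gave 26 with 212, and windows of one fixed width on the summits 19 with 155. Joining regions less than 150 bp or 1000 bp apart, chosen after seeing the data, left 15 with 122 and 10 with 80. Leaving out 1 library gave 13 to 18 bins and 105 to 146 members. By midpoint, 20 genes belong to dense bins in place of 36.

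The difference in the share of best intervals in dense bins, KO minus WT, is a description. It was 0.02 percentage points, 0.013 to 0.026 without 1 library, 0.0127 with the shifted grid and 0.02 with the replicate block. In bins chosen from lists of 100000 it was 0.794, and ranked by −log10 p 0.302.

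Over all regions, calls by limma at an adjusted p of 0.05 were 42 higher and 37 lower in KO. They were 1 and 0 with all 6 lists required, 7 and 4 with the gene-end share as covariate, 12 and 10 with linear ranks, 0 and 0 with a rank list of 50000, and 17 and 18 with ranks by fold. With the replicate block they were 1257 and 2541, and 5 and 6 among members (6.15%, against 7.33% of all). Without 1 library they were 6 to 5537 and 4 to 8742, and 0 to 18 and 0 to 22 among members, where the upper ends are without KO replicate 3. Each library's deviation from the mean of its own genotype was also correlated between KO and WT libraries. With the same replicate number the correlations were -0.25, 0.50 and 0.55, and with different numbers they ranged from -0.65 to 0.52. These are not the deviations from the mean of the 6 libraries given above. A pairing by number was not tested. Of the 10 named regions, which were picked by their p, 8 were called with the block.

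Calls of bins, 0 and 0, were 4 and 4 with all bins of 1 or more regions, 4 higher with linear ranks, 104 and 232 with the replicate block, and 0 to 731 and 0 to 1292 without 1 library (0 to 2 dense bins lower). By the number of best intervals per bin they were 92 and 43, with 1 dense bin, Rbm47, higher, where both genotypes had no spread. The rule chose the dense bins by these intervals, so that call is no independent test. By that number the gain of the Mdm2 bin was -0.21, that of the bin near Jade1 0.12 and that of the Amd1 and Cdk19 bin 0.16. With the gene-end share as covariate the bin near Jade1 had a gain of 0.26 and the Amd1 and Cdk19 bin 0.086, and by fold ranks the Denn2b bin had 0.069. The cause was not tested. The median gain of the members was 0.14 by fold ranks and 0.13 with the covariate.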
